A study of Mus musculus with 12 samples.

Results

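The genes described here are the immunoglobulin genes of 12 mouse tumours: 77 variable (V) segments with expression above 0 in at least 1 library, and 11 genes of constant regions and the J chain, 88 of the 32416 genes in the deposited expression table. The V segments are 39 of the heavy chain (Ighv), 35 of the kappa light chain (Igkv) and 3 of the lambda light chain (Iglv). The other members are Ighm, Ighd, Ighg1, Ighg2b, Ighg2c and Igha, which encode the constant parts of IgM, IgD, 3 forms of IgG and IgA, the light chain constant genes Igkc, Iglc1, Iglc2 and Iglc3, and Jchain, whose protein joins IgM and IgA into polymers. Members were chosen by these measured values being above 0, so their being above 0 is a description. The table holds no row at 0 in every library, so no V segment row lies just outside the rule, and the lowest peak among those inside it was 0.35 TPM (Igkv8-21). TPM is transcript abundance per gene length, scaled to the same total in each library.

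The tumours grew under the skin of C57BL/6 mice from B16 melanoma cells made to over-express Aoah, which encodes acyloxyacyl hydrolase, a lipase that inactivates bacterial endotoxin, or from cells with the Vector alone. The B16mhgp100 line gave 4 Aoah and 4 Vector tumours, all in mice given anti-PD1 from day 10, and the B16F10 line gave 2 Aoah and 2 Vector tumours, all in mice given anti-PD1 and anti-CTLA4 from day 6. Antibody was given at 200 µg per dose, 4 doses in all at 2 per week, with harvest 1 day after the final dose. Every mouse received checkpoint antibody and every tumour carried a vector. Nothing in the labels gives the promoter of the vector, the number of clones behind a line, or whether each tumour had a mouse of its own. P-values therefore cover the spread between these tumours, which may be technical. Model, antibodies and first day change together and cannot be told apart.

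Antibodies are made by B cells and, in large amounts, by plasma cells. During B cell development a V segment is joined to short D and J segments in the heavy chain, and to a J segment in a light chain, so each B cell clone transcribes its own chosen V segment next to a shared constant gene. A sample with few clones therefore shows a few V segments and not the whole set, and IgM is the class made before a cell switches to IgG or IgA. The junction of the segments, called CDR3, is the most variable part of an antibody, and repertoire software usually calls each distinct junction a clonotype. The deposited repertoire table gives clonotypes and clones without defining them, and its clone number is at or above its clonotype number in every library.

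The segments below are among the highest in the 3 libraries with the most immunoglobulin RNA, and are shown because the differences between those tumours lie in them. Each is shown as the last 120 bases of its coding sequence, in GENCODE M21 by name. The capitals run from the last in-frame cysteine codon (TGT or TGC) to the end of the germline segment, which is the part that enters CDR3. Ighv7-1 and Igkv15-103 led in the B16mhgp100 tumours Aoah 1 and Aoah 2, Ighv11-2 and Igkv14-126 were high in Aoah 2, Ighv1-15 and Igkv6-15 led in Vector 1 of B16F10, and Igkv8-16 was high in Aoah 1 and in Vector 1 of B16F10.
Ighv7-1: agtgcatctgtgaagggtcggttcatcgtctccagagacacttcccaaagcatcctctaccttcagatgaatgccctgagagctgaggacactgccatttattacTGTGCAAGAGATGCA
Igkv15-103: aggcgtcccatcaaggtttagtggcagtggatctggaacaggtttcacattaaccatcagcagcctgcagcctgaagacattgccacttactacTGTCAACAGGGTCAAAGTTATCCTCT
Ighv11-2: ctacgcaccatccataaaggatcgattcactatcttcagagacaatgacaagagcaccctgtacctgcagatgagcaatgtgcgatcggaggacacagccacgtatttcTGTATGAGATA
Igkv14-126: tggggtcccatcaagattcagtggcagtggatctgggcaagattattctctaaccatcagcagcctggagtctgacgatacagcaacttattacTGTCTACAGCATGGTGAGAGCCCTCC
Ighv1-15: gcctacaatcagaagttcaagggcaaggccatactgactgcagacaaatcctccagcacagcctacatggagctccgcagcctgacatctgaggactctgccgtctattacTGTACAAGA
Igkv6-15: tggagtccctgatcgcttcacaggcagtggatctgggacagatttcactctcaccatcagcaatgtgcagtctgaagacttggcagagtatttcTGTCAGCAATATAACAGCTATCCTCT
Igkv8-16: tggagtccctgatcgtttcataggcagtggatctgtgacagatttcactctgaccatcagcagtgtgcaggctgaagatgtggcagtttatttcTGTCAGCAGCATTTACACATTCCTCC
The heavy chain segments lie on chromosome 12 and the kappa segments on chromosome 6. Such a cysteine codon stood within the last 30 bases in 211 of 218 coding V segments of the annotation (96.8%) and in 74 of the 76 members that matched it (97.4%). The capitals span 9 to 15 bases in the heavy chain segments and 26 bases in the kappa segments. Ighv7-1, Igkv15-103, Igkv14-126 and Igkv8-16 had every window of 50 bases unique among the annotated V segments, and Igkv6-15 and Ighv1-15 had 84.2% and 79.1%. Ighv11-2 was 98.9% identical to its closest relative, Ighv11-1, with 47.7% of its windows unique, and Ighv1-15 was 98.0% identical to Ighv1-23. Over the 76 members the median identity to the closest segment was 95.4%, and 42 stood at 95% or more, so a value of a single segment can hold reads of a relative.

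Aoah itself, which checks the labels, stood at 17.9, 22.5, 14.0 and 3.91 TPM in Aoah 1 to Aoah 4 of B16mhgp100 and at 7.58, 0.89, 2.43 and 1.57 TPM in Vector 1 to Vector 4. In B16F10 it stood at 21.8 and 23.7 TPM in the Aoah tumours and at 1.49 and 0.75 TPM in the Vector tumours. Aoah thus goes against the label of the library labelled Aoah 4 of B16mhgp100, whose value falls among those of the Vector tumours. That library also held 4401 TPM of 5 keratins of skin (at most 26.3 TPM in the other 11 libraries) and 3287 TPM of 5 skeletal muscle genes (at most 576 TPM in the others). Every direction drawn in B16mhgp100 rests in part on it. In bulk tissue, fewer cells of a type and less RNA per cell cannot be told apart.

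Immunoglobulin RNA was concentrated in 3 of the 12 tumours, 2 of them Aoah tumours of B16mhgp100 and 1 a Vector tumour of B16F10. The 88 members summed to 129, 127, 6.04 and 24.3 TPM in Aoah 1 to Aoah 4 of B16mhgp100. In Vector 1 to Vector 4 of that model they summed to 48.2, 10.6, 11.8 and 5.00 TPM. The Aoah and Vector ranges overlapped, since Aoah 3 stood below 3 of the 4 Vector tumours. In B16F10 the sums were 12.2 and 8.45 TPM in the Aoah tumours, and 162 and 3.96 TPM in Vector 1 and Vector 2. Vector 1 thus held the highest sum of all 12 libraries and Vector 2, of the same group, the lowest. Vector 1 of B16F10 and Aoah 1 and Aoah 2 of B16mhgp100 held 76.2% of the summed TPM of all libraries. Even in these, immunoglobulin made up at most 0.0163% of a library's TPM.

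In B16mhgp100 the sum had a group mean of 71.5 ± 65.5 TPM for Aoah against 18.9 ± 19.8 TPM for Vector (SD, n = 4 each), with a ratio of means of 3.78, or 1.92 on the log2 scale. The pooled SD of the log2 sums within groups was 1.79. Without the library labelled Aoah 4 the log2 ratio of means was 2.21, and without Vector 1 it was 2.97. It stayed above 0 with each of the 8 libraries left out in turn, at 1.47 or more. Leaving out 1 library at a time cannot test a direction carried by Aoah 1 and Aoah 2 together, at 129 and 127 TPM. Aoah 3 and the library labelled Aoah 4, at 6.04 and 24.3 TPM, lay within the Vector range of 5.00 to 48.2 TPM. The group means of B16F10 were 10.3 ± 2.67 TPM for Aoah against 82.9 ± 112 TPM for Vector (SD, n = 2 each), which is -3.0 as a log2 ratio. That ratio turned to 1.38 without Vector 1, so its direction rests on that library. No p is given for a sum over members chosen with results of these data known.

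**Figure D1:**
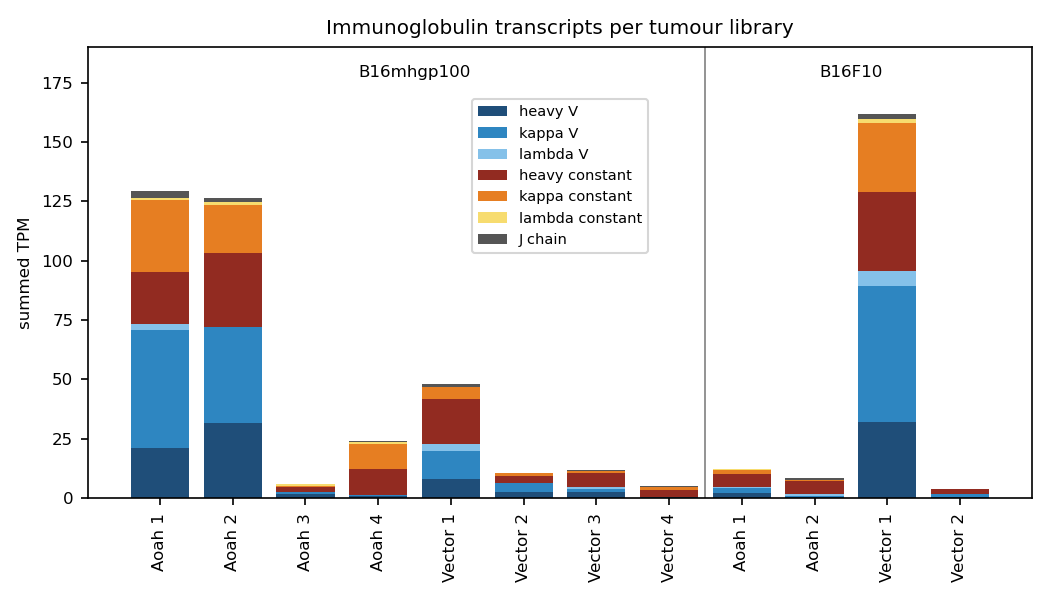
Summed TPM (y axis, linear from 0) of the immunoglobulin members in each of the 12 libraries (x axis), stacked by class of gene; the grey line separates the models. Aoah 1 and Aoah 2 of B16mhgp100 and Vector 1 of B16F10 stand between 127 and 162 TPM, and the other 9 libraries between 3.96 and 48.2 TPM.

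V segments and constant genes were high in the same libraries, with the library labelled Aoah 4 of B16mhgp100 apart. The V segments summed to 73.2, 71.9 and 95.5 TPM in the 3 leading libraries, beside 56.0, 54.6 and 66.3 TPM for constant genes and Jchain. In the library labelled Aoah 4 the V segments summed to 1.54 TPM and the constant genes and Jchain to 22.7 TPM. Its Igkc, at 10.3 TPM, and its Ighm, at 10.7 TPM, each lay above those of all 4 Vector tumours of the model, while only 4 of the 77 V segments were above 0 in it, none above 0.41 TPM. Whether the skin and muscle RNA in that library has a part in this was not tested.

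Ighm, the constant gene of IgM, was measured above 0 in all 12 libraries. It stood at 17.8, 31.2, 1.82 and 10.7 TPM in Aoah 1 to Aoah 4 of B16mhgp100 and at 8.16, 2.04, 3.32 and 2.56 TPM in Vector 1 to Vector 4. In B16F10 it stood at 4.35 and 4.42 TPM in the Aoah tumours and at 22.3 and 1.89 TPM in the Vector tumours. In both models the groups overlapped, and in B16F10 the Aoah tumours lay between the Vector tumours. The log2 fold change of log2(TPM + 1), a scale that understates changes of low genes, was 1.39 in B16mhgp100 (SE 0.70, limma adjusted p = 0.694) and -0.61 in B16F10 (SE 0.94, limma adjusted p = 0.782).

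Igkc, the constant gene of the kappa light chain, varied more. Its values were 30.2, 20.04, 0.32 and 10.3 TPM in Aoah 1 to Aoah 4 of B16mhgp100 and 4.80, 1.02, 0.93 and 1.29 TPM in Vector 1 to Vector 4. In B16F10 it stood at 1.67 and 0.29 TPM in the Aoah tumours, at 29.2 TPM in Vector 1 and at 0 in Vector 2. Aoah 3 of B16mhgp100 stood below every Vector tumour of its model, and the other 3 Aoah tumours above. The log2 fold change was 1.89 in B16mhgp100 (SE 0.91, limma adjusted p = 0.694) and -1.56 in B16F10 (SE 1.54, limma adjusted p = 0.638). Neither direction in B16F10 held with each library left out, since Ighm and Igkc turned to 0.90 and 0.89 without Vector 1. Without Vector 2 they stood at -2.11 and -4.02. In that fit Vector 1 alone is the Vector group, which is assumed to vary like the other group.

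Only Ighm and Igkc among the members reached 1 TPM in enough libraries to be tested within a model, so the tests speak for 2 of 88 members and not for the set. In B16mhgp100, 0 of these 2 passed at an adjusted p under 0.05 in limma, and 0 had an unadjusted p under 0.05. The background is 0% of 14228 genes passing, with 350 at an unadjusted p under 0.05. In B16F10, limma passed 0 of the 2, with 0 at an unadjusted p under 0.05, where 0.344% of 14533 genes passed, 0.289% as higher and 0.055% as lower. With no filter on low values, 70 members could be tested in B16mhgp100 and 55 in B16F10. Of these 0 passed in either, with 0 at an unadjusted p under 0.05 in both. Over all genes 0 of 31158 and 0 of 26770 passed in these fits, so the members are not set apart by passing none.

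The authors' deposited tables, made by DESeq2 per the submitters' processing notes, give the same genes on a count scale. For B16mhgp100, 70 members matched the authors' deposited table, and 54 of them had a mean normalised count under 1 over the 8 libraries. The mean counts there were 137 for Ighm, 29.2 for Igkc, 18.6 for Igha and 11.1 for Jchain, so most V segments rest on few reads. Of the 13 members with an adjusted p in the authors' deposited table for B16mhgp100, 0 passed, where 0.0146% of 20534 genes did. In it 4 of the 69 members with a p had an unadjusted p under 0.05 (5.8%), beside 4.15% of all genes, and the 4 were higher in Aoah tumours. They were Igkc (log2 fold change 3.10), Ighm (2.13), Ighv7-1 (5.38) and Igkv15-103 (3.94), each in the authors' deposited table. Ighv7-1 was above 0 only in Aoah 1 and Aoah 2 of B16mhgp100 and is a member through them, so the rule fixed its direction. For B16F10, 55 members matched the authors' deposited table, 3 had an adjusted p, and 1 passed, where 8.53% of 14328 genes did, and 3.88% as lower. That member was Igha, lower in Aoah tumours by the authors' deposited table (log2 fold change -4.70, adjusted p = 0.0405). In the authors' deposited table for B16F10, 4 of 55 members had an unadjusted p under 0.05 (7.27%), beside 11.2% of all genes, and the 4 were lower in Aoah tumours. Besides Igha these were Igkv6-15 (-6.11), Ighv1-15 (-5.87) and Igkv8-16 (-5.76) in the authors' deposited table. Among the B16F10 tumours, Igkv6-15 (17.1 TPM) and Ighv1-15 (14.1 TPM) were above 0 only in Vector 1. Igkv8-16 stood at 10.96 TPM there, at 0.60 TPM in Vector 2 and at 0 in the Aoah tumours. The directions of these V segments thus go with the value of Vector 1.

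Igha, the constant gene of IgA, the antibody class of mucosal surfaces, was high in 3 libraries of 3 different groups. It stood at 10.5 TPM in Vector 1 of B16mhgp100, at 8.72 TPM in Vector 1 of B16F10 and at 4.19 TPM in Aoah 1 of B16mhgp100. Elsewhere it was at most 1.25 TPM, in Vector 3 of B16mhgp100, and it was at 0 in Aoah 3. In B16F10 the Aoah tumours stood at 0.10 and 0.22 TPM and Vector 2 at 0.12 TPM, between them, so the fold change in the authors' deposited table goes with the value of Vector 1.

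The other heavy chain constant genes were low, and none of the IgG members passed 0.04 TPM in Aoah 1 or Aoah 2 of B16mhgp100. Ighg1 stood at 1.93 TPM in Vector 1 of B16F10, 0.57 TPM in Aoah 2 and 0.11 TPM in Aoah 1 of B16F10, and at 0 in all other libraries. Ighg2b peaked at 0.62 TPM in Aoah 1 of B16F10 and Ighg2c at 0.79 TPM in Vector 3 of B16mhgp100. Ighg3, an IgG gene that is no member, was at 3.27 TPM in Vector 1 of B16F10 and at no more than 0.11 TPM elsewhere. Ighd, made beside IgM by naive B cells, never passed 0.17 TPM. Ighm made up 80.2% and 99.1% of the heavy chain constant TPM in Aoah 1 and Aoah 2 of B16mhgp100, 42.5% in Vector 1 of that model and 66.5% in Vector 1 of B16F10.

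Jchain, which IgM- and IgA-secreting cells use to link antibody units, followed the leading libraries. It stood at 2.88, 1.86, 0.10 and 0.48 TPM in Aoah 1 to Aoah 4 of B16mhgp100 and at 1.51, 0.09, 0.17 and 0.09 TPM in Vector 1 to Vector 4. In B16F10 it stood at 0.09 and 0.57 TPM in the Aoah tumours, at 2.03 TPM in Vector 1 and at 0 in Vector 2. The 4 libraries with the highest Jchain are the 4 with the highest summed immunoglobulin TPM.

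**Figure D2:**
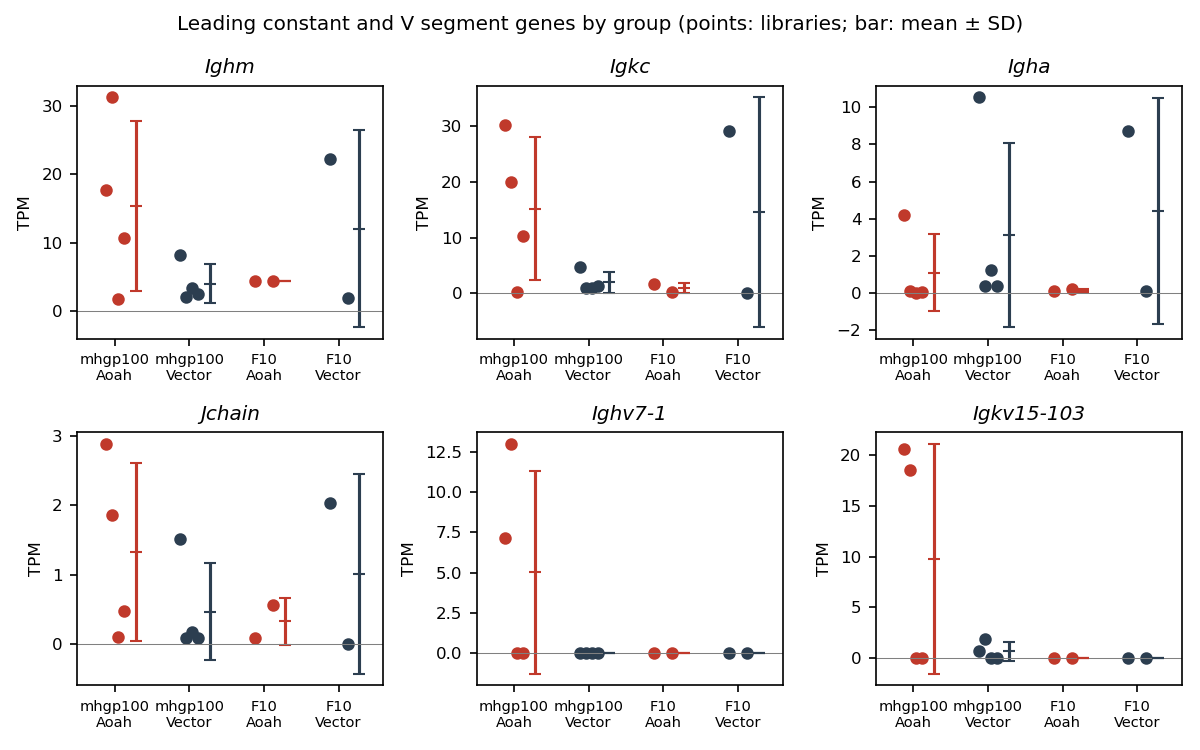
TPM (y axes, linear) of 4 constant or J chain genes and 2 V segments in each library (points) by group (x axis), with the group mean and SD as a bar beside the points. Aoah 1 and Aoah 2 stand high in Ighv7-1 and Igkv15-103, at 7.14 to 20.6 TPM, while Igha is highest in Vector 1 of B16mhgp100 at 10.5 TPM.

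The V segments were few, and many were low and above 0 in 1 tumour only. Of the 77, 40 (51.9%) were above 0 in 1 library only, 21 in 2 libraries and 16 in 3 or more, and none in more than 5. A total of 38 peaked below 1 TPM, 12 reached 5 TPM and 5 reached 10 TPM. Each of those 5 was above 0 in 2 to 4 libraries, so the segments in 1 library lie among the lower ones. The share in 1 library was not taken over all genes, and a 0 near this floor does not show that a segment is private to a tumour. The number above 0 was 27, 22, 3 and 4 in Aoah 1 to Aoah 4 of B16mhgp100 and 16, 8, 7 and 1 in Vector 1 to Vector 4. It was 7 and 3 in the Aoah tumours and 36 and 3 in the Vector tumours of B16F10. The 4 libraries with the highest summed immunoglobulin also had the most segments, while the library labelled Aoah 4, with the next highest sum, had 4. The table keeps no depth per library, so these numbers cannot be set against reads. The annotation names 183 Ighv, 160 Igkv and 3 Iglv symbols, so 39 and 35 members are a minority of the heavy and kappa names.

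Ighv7-1 and Igkv15-103 were both high in Aoah 1 and Aoah 2 of B16mhgp100. Igkv15-103 stood at 20.6 and 18.5 TPM there, at 0.64 and 1.91 TPM in Vector 1 and Vector 2 of the model, and at 0 in the other 8 libraries. It was the highest V segment in Aoah 1, Aoah 2 and Vector 2, and made up 28.2%, 25.7% and 29.4% of their V segment TPM. Ighv7-1, of the S107 family known from antibodies against phosphorylcholine, stood at 7.14 and 13.0 TPM in Aoah 1 and Aoah 2 and at 0 in the other 10 libraries. Igkv4-55 stood at 9.28 and 2.27 TPM in these tumours and Ighv10-1 at 6.69 and 1.90 TPM. Outside them Igkv4-55 was above 0 only in Vector 2 of B16F10, at 0.60 TPM, and Ighv10-1 was at 0. The tumours shared 9 segments, 33.3% of the 27 in Aoah 1 and 40.9% of the 22 in Aoah 2, and these made up 65.3% and 54.8% of their V segment TPM.

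Each of these tumours also had high segments that stood at 0 in the other. In Aoah 2, Ighv11-2 stood at 7.07 TPM and Igkv14-126 at 5.09 TPM. Antibodies that join these 2 segments are known from B-1 cells and bind phosphatidylcholine, and bulk RNA does not show which heavy and light chains share a cell. Ighv11-2 was otherwise above 0 only in Vector 2 of B16mhgp100, at 0.43 TPM, and Igkv14-126 in no other library. The only annotated segment of the Igkv16 family at 5.13 TPM, Ighv4-1 at 4.77 TPM and Igkv4-86 at 3.99 TPM were also high in Aoah 2. Ighv4-1 and Igkv4-86 were above 0 in no other library, and these 2 and Igkv14-126 were named after their values were seen. In Aoah 1, Igkv8-16 stood at 12 TPM.

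Vector 1 of B16F10 had the widest set, led by other segments. Igkv6-15 stood at 17.1 TPM, Ighv1-15 at 14.1 TPM, Igkv8-16 at 10.96 TPM, Igkv1-117 at 7.75 TPM and Iglv1 at 6.19 TPM, and the highest of them made up 17.9% of its V segment TPM. It shared 10 segments with Aoah 1 of B16mhgp100, 27.8% of its 36 and 37.0% of the 27 there, and 4 with Aoah 2, 11.1% and 18.2%. With Vector 1 of B16mhgp100 it shared 9, 25.0% of its own and 56.3% of the 16 there. Neither Ighv7-1 nor Igkv15-103 was above 0 in it. Vector 1 of B16mhgp100 was led by Igkv2-109 at 4.52 TPM and Iglv1 at 2.96 TPM.

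**Figure D3:**
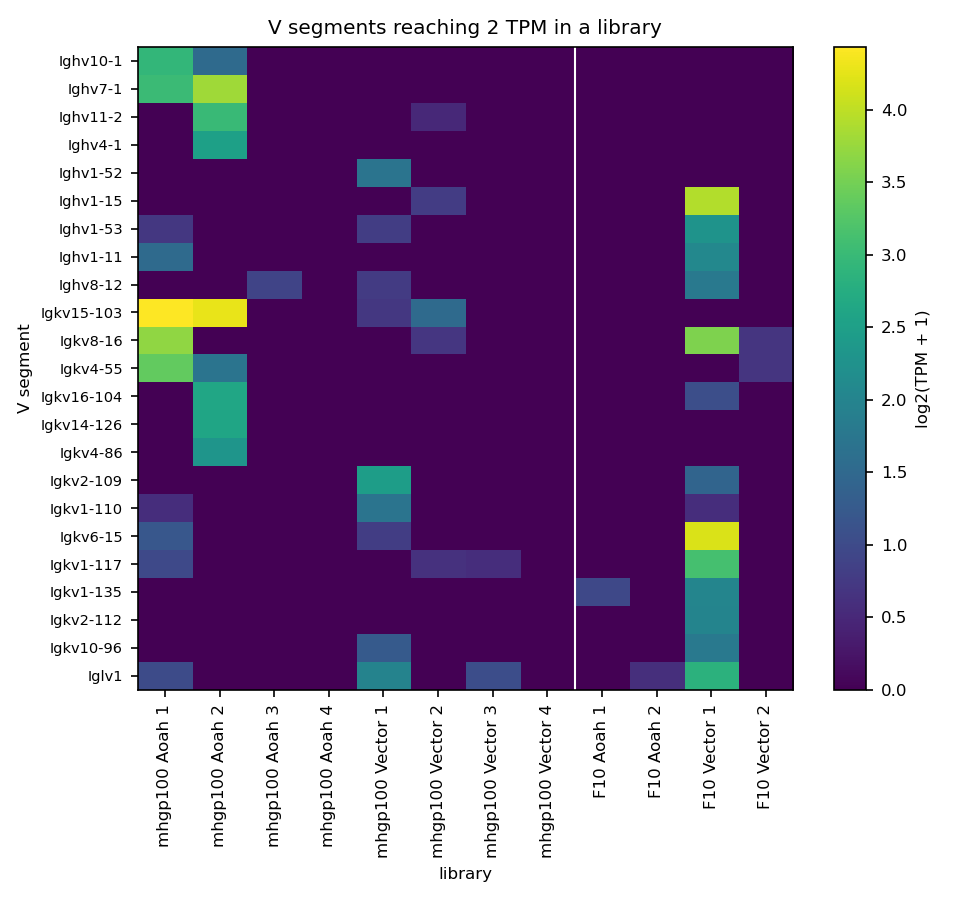
log2(TPM + 1) (colour) of each V segment that reached 2 TPM in a library (rows) across the 12 libraries (columns), sorted by class and by the library of the peak; the white line separates the models. Ighv7-1 and Igkv15-103 are bright in Aoah 1 and Aoah 2 of B16mhgp100 and dark in Vector 1 of B16F10, where Igkv6-15 stands at 17.1 TPM.

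By family and by place in the locus, the heavy chain segments of the leading tumours were distributed differently. The Ighv1 family, the largest with 92 of the annotated names and 20 of the members, gave 25.1 of the 32.3 TPM of heavy V segments in Vector 1 of B16F10. It gave 6.92 of 8.15 TPM in Vector 1 of B16mhgp100, but 3.74 of 21.3 TPM in Aoah 1 and 0.52 of 31.5 TPM in Aoah 2. Ordered by distance from Ighm in GENCODE M21, the 38 nearest of 115 coding heavy segments hold 13 members, the next 38 hold 11 and the 39 farthest hold 15. The nearest held 26.7 TPM in Aoah 2, 9.58 TPM in Aoah 1 and 3.12 TPM in Vector 1 of B16F10. The next group held 20.1 TPM in Vector 1 of B16F10, 9.27 TPM in Aoah 1 and 4.25 TPM in Aoah 2. The farthest held 9.11, 2.44 and 0.52 TPM in these, so Aoah 1 was split about evenly between the nearest and the next.

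Light chain RNA was mostly kappa. Igkc made up 97.5% and 94.3% of the light chain constant TPM in Aoah 1 and Aoah 2 of B16mhgp100 and 94.6% in Vector 1 of B16F10. Iglc1 peaked at 1.18 TPM in Vector 1 of B16F10, Iglc2 at 0.51 TPM in the library labelled Aoah 4 and Iglc3 at 1.22 TPM in Aoah 2. Iglc2 and Iglc3 are near-identical copies, so their separate values are uncertain. In Aoah 3 of B16mhgp100 and Aoah 2 of B16F10, where Igkc was at 0.32 and 0.29 TPM, the kappa share was 27.8% and 42.6%. Iglv1 was above 0 in 5 libraries, with 6.19 TPM in Vector 1 of B16F10, 2.96, 1.06 and 1.03 TPM in Vector 1, Vector 3 and Aoah 1 of B16mhgp100 and 0.51 TPM in Aoah 2 of B16F10. Iglv2 was at 0.58 TPM in Aoah 1 of B16mhgp100 and at 0 elsewhere, and Iglv3 was at 0.54 TPM there and at 0.50 TPM in Aoah 1 of B16F10.

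The deposited repertoire table, a separate reading of the same libraries, put the clones in the same 3 tumours. IGH clones numbered 22, 35, 0 and 0 in Aoah 1 to Aoah 4 of B16mhgp100 and 10, 1, 1 and 0 in Vector 1 to Vector 4. In B16F10 they numbered 2 and 3 in the Aoah tumours and 45 and 0 in the Vector tumours. The 3 leading tumours thus held 102 of the 119 IGH clones, and they held 158 of the 200 IGL clones. IGL clones numbered 49, 37, 1 and 13 in Aoah 1 to Aoah 4 of B16mhgp100, 15, 1, 3 and 0 in Vector 1 to Vector 4, 4 and 2 in the Aoah tumours of B16F10 and 72 and 3 in its Vector tumours. Since both tables come from the same reads, their order is not independent.

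None of the 4 repertoire counts that could be compared differed in B16mhgp100 beyond the spread between tumours. IGH clones were at 14.3 ± 17.3 in Aoah and 3.00 ± 4.69 in Vector tumours (SD, n = 4 each, exact 2-sided permutation p = 0.429, adjusted 0.571). IGL clones were at 25.0 ± 21.9 and 4.75 ± 6.95 (exact permutation p = 0.229, adjusted 0.571). IGH clonotypes were at 4.00 ± 4.90 and 1.75 ± 2.22 (exact permutation p = 0.629, adjusted 0.629), and IGL clonotypes at 7.25 ± 4.65 and 3.25 ± 4.03 (exact permutation p = 0.314, adjusted 0.571). With 4 against 4 the smallest possible p is 0.0286. In each measure 2 or 3 of the 4 Aoah tumours stood above the median Vector tumour, and Aoah 3 did not. In B16F10 a test of 2 against 2 cannot go below 0.333, and the values are described only.

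**Figure D4:**
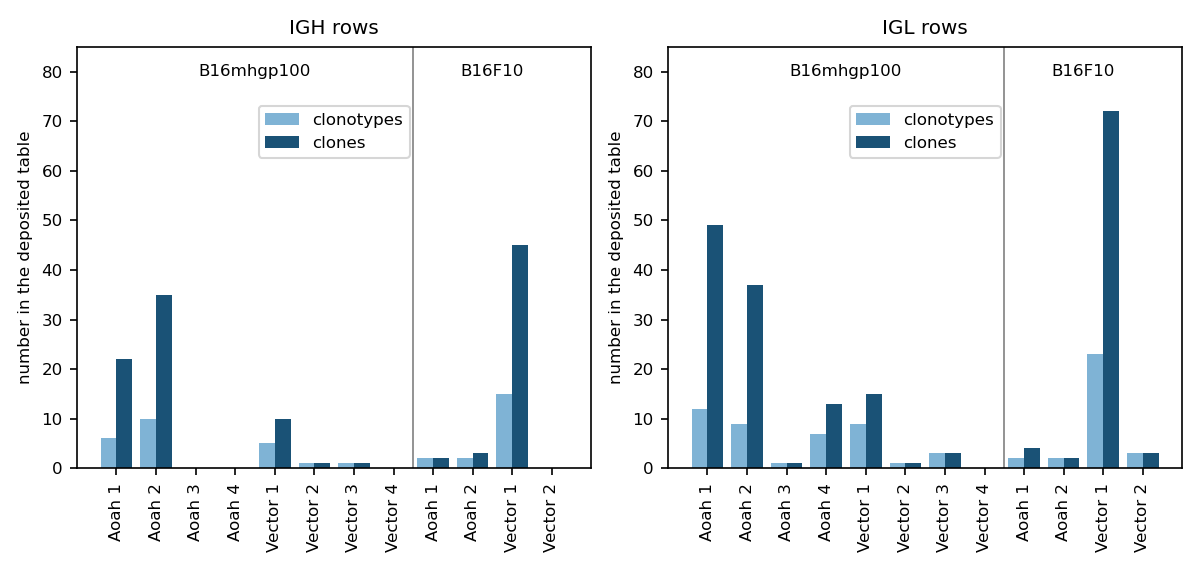
Number of clonotypes (light bars) and clones (dark bars) in the IGH rows (left) and IGL rows (right) of the deposited repertoire table for each library, on a linear axis from 0. Vector 1 of B16F10 has 45 IGH and 72 IGL clones, and the library labelled Aoah 4 of B16mhgp100 has 13 IGL clones and 0 IGH clones.

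Clones outnumbered clonotypes where immunoglobulin was high, and also in some libraries with less. The library labelled Aoah 4 of B16mhgp100 had 13 IGL clones in 7 clonotypes, and Aoah 2 of B16F10 had 3 IGH clones in 2. Among the highest, Aoah 1 of B16mhgp100 had 22 IGH clones in 6 clonotypes and Aoah 2 of that model had 35 in 10. Vector 1 of B16mhgp100 had 10 in 5 and Vector 1 of B16F10 had 45 in 15. Clonality, which rises from 0 as a few clonotypes take more of the clones, was 0.161, 0.176, 0.155 and 0.154 for IGH in these 4 highest tumours. For IGL it was 0.272 in Aoah 1 and 0.164 in Vector 1 of B16F10, 0.130 in both Aoah 2 and the library labelled Aoah 4, and 0.0619 in Vector 1 of B16mhgp100. The IGH entropy, which grows with the number of clonotypes and their evenness, was highest in Vector 1 of B16F10 at 3.30, beside 2.17 in Aoah 1, 2.74 in Aoah 2 and 1.96 in Vector 1 of B16mhgp100.

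Among the libraries with at least 10 IGH clones, the isotype ratios, named as shares of IGH, set Vector 1 of B16mhgp100 apart. Their base is not given. It is not the clone number itself, since 0.75 and 0.25 of the 10 IGH clones there are not whole numbers. The ratios may thus rest on fewer clones than that, in this library too. The IgM ratio was 0.818 in Aoah 1, 1 in Aoah 2 and 0.659 in Vector 1 of B16F10. In Vector 1 of B16mhgp100 it was 0, with IgA at 0.75 and IgG at 0.25, although Ighm stood at 8.16 TPM beside 10.5 TPM of Igha. The IgA ratio was 0.182 in Aoah 1 and 0.122 in Vector 1 of B16F10, the other 2 libraries with Igha above 4 TPM. The IgG ratio was 0.22 in Vector 1 of B16F10, with IgG1 at 0.0488. The ratios of the 4 libraries with 1 to 3 IGH clones rest on too few clones to read, and the 4 libraries without an IGH clone stand at 1 in each ratio, which holds no information.

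The IGL rows did not require lambda V segments. The library labelled Aoah 4 had 13 IGL clones with every Iglv segment at 0, 1.03 TPM of lambda constant genes and 10.3 TPM of Igkc. Aoah 2 had 37 IGL clones with lambda V segments at 0 and kappa V segments at 40.4 TPM. Lambda RNA was nonetheless highest where IGL clones were most numerous, since Vector 1 of B16F10, with 72, had 6.19 TPM of lambda V segments and 1.67 TPM of lambda constant genes. Vector 2 of B16F10 had 3 IGL clones with Igkc and the lambda genes at 0 and 1.20 TPM of kappa V segments. The table has no rows named for kappa, and whether its IGL rows hold both light chains is not given in the sources used here. The 13 IGL clones in the library labelled Aoah 4 also stand beside only 0.72 TPM of kappa V segments.

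Most markers of B cells were low in every tumour, those with much immunoglobulin RNA included. Of 14 B cell genes, 9 stayed below 1 TPM in all libraries, and the list summed to 3.86 to 8.45 TPM in the Aoah and 2.98 to 10.1 TPM in the Vector tumours of B16mhgp100. In B16F10 it summed to 7.57 and 7.85 TPM in the Aoah and 4.62 and 5.72 TPM in the Vector tumours. Ms4a1, the gene of CD20, never passed 0.08 TPM. Cd79b, a signalling chain of the B cell receptor, peaked at 1.68 TPM in Aoah 1 of B16F10 and Cd79a at 1.72 TPM in Vector 2 of B16F10. The highest genes of the list were Cd22, up to 4.77 TPM in Vector 1 of B16mhgp100 and 3.45 TPM in Aoah 2 of B16F10, and Ebf1, up to 4.05 TPM in the library labelled Aoah 4. Only Ebf1 (log2 fold change 0.61) was tested among these genes in B16mhgp100, and Cd22 (1.26) and Ebf1 (-0.19) in B16F10, and 0 passed in limma (adjusted p = 0.694, 0.145 and 0.758). Cd22 in B16F10 was the only 1 of these with an unadjusted p under 0.05.

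Plasma cell genes differed among themselves, some near 0 and others above 1 TPM throughout. Mzb1, a chaperone of antibody secretion, stood at 1.09 and 0.74 TPM in Aoah 1 and Aoah 2 of B16mhgp100 and at 1.39 TPM in Vector 1 of B16F10, its highest value. It was also at 0.99 TPM in Vector 3 and 0.73 TPM in Vector 1 of B16mhgp100, and at 0 in Aoah 3 and in Vector 2 of B16F10. Tnfrsf17, the gene of the plasma cell receptor BCMA, was above 0 only in the library labelled Aoah 4, at 0.45 TPM. Sdc1 at 22.2 to 48.4 TPM, Xbp1 at 41.0 to 148 TPM and Irf4 at 1.03 to 5.07 TPM were above 1 TPM in every library, and Irf4 is also a gene of pigment cells. In limma 0 of 6 tested plasma cell genes passed in B16mhgp100 and 0 of 5 in B16F10, with 0 and 1 at an unadjusted p under 0.05, and their median log2 fold changes were -0.38 and -0.11, beside -0.20 and 0.02 over all genes. Irf4 (-0.65), Xbp1 (-0.50), Ell2 (-0.64) and Sdc1 (-0.26) had the smallest p in B16mhgp100. Each was lowest of all 12 libraries in the library labelled Aoah 4, at 1.03, 41.0, 2.06 and 22.2 TPM. Whether the skin and muscle RNA in that library has a part in this was not tested. In B16F10 the smallest p belonged to Fkbp11 (-0.70), Sdc1 (-0.28), Ell2 (0.32) and Xbp1 (0.11).

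**Figure D5:**
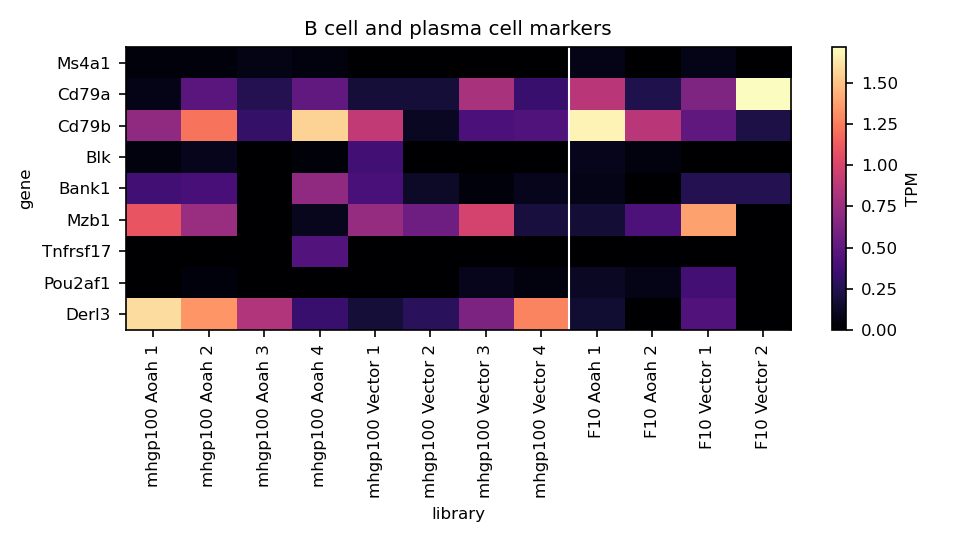
TPM (colour, linear from 0) of 9 B cell and plasma cell genes (rows) in the 12 libraries (columns); the white line separates the models. None of the genes shown passes 2 TPM, and Ms4a1 stays at or below 0.08 TPM throughout. The B cell genes Cd22 and Ebf1, which are not shown, reach 4.77 and 4.05 TPM. Plasma cell genes that are not shown reach more: Xbp1 148, Sdc1 48.4, Fkbp11 38.5, Ell2 15.1, Irf4 5.07 and Prdm1 2.06 TPM.

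Few genes of germinal centres and none of V(D)J recombination reached the level needed for a test. Bcl6 (log2 fold change 0.10 in B16mhgp100 and 0.37 in B16F10) and S1pr2 (-0.06 and 0.19) were the only 2 of 6 germinal centre genes tested, and 0 passed in limma in either model, with 0 at an unadjusted p under 0.05. Of 6 genes of recombination and the surrogate light chain, the 3 found in the table, Rag2, Dntt and Igll1, peaked at 0.02, 0.22 and 0.21 TPM.

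Of the signals that attract and sustain B cells, none passed in either model. Cxcl13, the chemokine of B cell follicles, stood at 3.65, 11.6, 0.11 and 11.7 TPM in Aoah 1 to Aoah 4 of B16mhgp100 and at 2.85, 0.12, 0.75 and 0 TPM in Vector 1 to Vector 4, with a log2 fold change of 1.69 (SE 0.79, limma adjusted p = 0.694). In B16F10 it stayed between 0.10 and 0.31 TPM, also in Vector 1 with its 162 TPM of immunoglobulin. All 6 tested genes of this list lay above 0 in B16mhgp100, with a median log2 fold change of 0.40 beside -0.20 over all genes, and 0 passed in limma, with 0 at an unadjusted p under 0.05. Ltb (0.41), Cd40 (0.39) and Tnfrsf13b (0.35) had the next smallest p. In B16F10 limma passed 0 of 5, and 2 stood at an unadjusted p under 0.05. These were Ltb, a lymphotoxin chain, at 2.39 (adjusted p = 0.0585) and Cd40 at 1.12 (adjusted p = 0.138), followed by Tnfrsf13b (-0.33) and Tnfsf13 (-0.21).

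Of the receptors and transporters of antibody, 5 of 5 tested genes lay above 0 in B16mhgp100, with a median log2 fold change of 0.63 beside -0.20 over all genes, and 0 passed in limma, with 0 at an unadjusted p under 0.05. Fcgrt, the neonatal Fc receptor, stood at 51.9, 148, 13.8 and 111 TPM in Aoah 1 to Aoah 4 and at 45.4, 15.8, 17.1 and 18.2 TPM in Vector 1 to Vector 4. Its log2 fold change was 1.40 (SE 0.69, limma adjusted p = 0.694), with Aoah 3 below all Vector tumours and the other 3 above. Fcgr4 had 0.81, Fcgr2b 0.59 and Fcgr3 0.63 in B16mhgp100. In B16F10 limma passed 0 of 6, and 2 stood at an unadjusted p under 0.05, Fcgr4 at 2.15 (adjusted p = 0.104) and Fcgr1 at 1.18 (adjusted p = 0.119). Fcgr3 had 0.46 and Fcgr2b 0.37 there.

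T cell genes did not follow immunoglobulin RNA in B16F10. The 7 T cell genes summed to 56.9 and 71.1 TPM in the Aoah tumours, where immunoglobulin stood at 12.2 and 8.45 TPM, and to 9.08 and 2.78 TPM in the Vector tumours, where it stood at 162 and 3.96 TPM. Of them 2 rose in Aoah tumours in limma, Cd8a at a log2 fold change of 3.25 (adjusted p = 0.0286) and Cd8b1 at 2.76 (adjusted p = 0.0384), where 0.289% of all genes passed as higher. With no filter on low values 0 genes passed in B16F10, so these calls and that of Krt10 are lost there. Cd3d stood at 2.12 and Cd3e at 2.52 (adjusted p = 0.0571 and 0.0976). In B16mhgp100 the T cell sums ran from 11.3 to 17.6 TPM in Aoah and from 6.93 to 22.3 TPM in Vector tumours, and 0 of 7 passed in limma, with 0 at an unadjusted p under 0.05. Of the lists for skin, skeletal muscle and red blood cells, 0 of 1, 0 of 5 and 0 of 5 tested genes passed in B16mhgp100, with 0 at an unadjusted p under 0.05. Other lists also lay above the median of all genes there, with 5 of 5 red blood cell genes (median 0.42), 4 of 5 muscle genes (0.57) and 6 of 7 T cell genes (0.18) above 0. In B16F10 1 of 2, 0 of 4 and 0 of 5 passed, the 1 being the keratin gene Krt10 at 3.11 (limma adjusted p = 0.0384).

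The Aoah effect and the level were also compared between the models in a fit of all 12 libraries, in which 16 members could be tested. For the difference of the Aoah effect, limma passed 0 of 16, with 0 at an unadjusted p under 0.05, where 0.0302% of 16556 genes passed. Genes passing as higher made up 0.0242% and as lower 0.00604%. The 3 members with the smallest p, Igkv8-16, Ighv1-11 and Igkv6-15, reached 1 TPM only in Aoah 1 of B16mhgp100 and Vector 1 of B16F10. Both groups enter this difference with the same sign, so the filter fixed the direction and the values are not given as a test. For B16F10 against B16mhgp100 over both vectors, limma passed 0 of 16, with 0 at an unadjusted p under 0.05, where 7.37% of genes passed, 3.66% as higher and 3.71% as lower. Of the 3 members with the smallest p there, Igkv15-103 and Ighv7-1 reached 1 TPM in B16mhgp100 tumours only and entered the fit through them, so their direction was fixed by the filter and their values are not given as a test. The other was Igkv6-15 at 0.79 (adjusted p = 0.493). Without Vector 2 of B16F10, Igkv6-15 stood at 1.84, in a fit where Vector 1 alone stands for its group. Vector 1 was also the only B16F10 tumour with Igkv6-15 above 0, at 17.1 TPM.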

How the data were processed

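RNA was measured in 12 libraries, grouped by the sample titles. Expression values are log2(TPM + 1) as deposited, judged from their sums, and the submitters' processing notes name RSEM and mm39. TPM keeps no depth, so no counting interval is given, and RSEM shares reads between near-identical genes. The authors' deposited differential tables come from DESeq2 per the submitters' processing notes, which give no version. The authors' deposited mean normalised count is a signal over all libraries of a model, and their deposited log2 fold changes come with errors. The test score and each raw or adjusted p-value are also as deposited by the authors. The deposited repertoire table gives clonotypes, clones, entropy, clonality and isotype ratios, and its caller is named in its title only.

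Here limma 3.58.1 was run on the log2 values (R 4.3.3, intensity trend, 2-sided, Benjamini-Hochberg over all kept genes, threshold 0.05). Genes were kept at 1 TPM or more in at least 4 libraries for B16mhgp100 and in at least 2 for B16F10 and for the fit of all 12. The fits within a model were run on simulated data, with a set recovery required of the B16mhgp100 fit only. The permutation test was checked on a fixed case of fully separated groups. Repertoire counts were compared by exact permutation (scipy 1.17.1), adjusted over 4 measures, and isotype ratios were described only. V segment sequences came by symbol from GENCODE M21, on GRCm38, so no coordinates are printed, and were aligned with Biopython 1.88. Symbols for the authors' gene identifiers came from a reference table of names.

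The members and lists were chosen with earlier results of these data known. Named were the 11 constant and J chain genes, the 6 V segments of each chain with the highest mean TPM, the highest segment of each library, the 3 members with the smallest p where none passed, and up to 4 genes of each list with the smallest p. Other segments are named as examples and were chosen after their values were seen. Alternatives were another pseudocount, no filter, median-of-ratios scaling, a replicate block, a common fit and leaving out each library. Some genes of the lists are not reported here.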

Additional observations from a re-analysis of the deposited data

Results flagged for a closer look

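In groups of 4 tumours, a value was picked out where its gap to the nearest of the others exceeded Dixon's 95% critical value as a share of the group's range. This was examined for 40 quantities in both B16mhgp100 groups, and 28 values stood apart, where chance gives about 1 in 20 groups. Many come from segments at 0 in the other 3 tumours, which meet the criterion by construction, so the number of such values is not a result.

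Among Vector tumours of B16mhgp100, Vector 1 stood above the others in summed immunoglobulin (48.22 TPM), summed constant genes (25.49 TPM), Igkc (4.8 TPM), Jchain (1.51 TPM), Igha (10.53 TPM), Igkv2-109 (4.52 TPM), Ighv1-53 (0.74 TPM), Igkv6-15 (0.75 TPM) and IGH clones (10). Vector 2 did so in Ighv1-15 (0.73 TPM), Ighv11-2 (0.43 TPM) and Igkv8-16 (0.62 TPM), and Vector 3 in Iglc2 (0.25 TPM).

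Among the Aoah tumours, Aoah 1 stood above the others in Igha (4.19 TPM), Igkv8-16 (12 TPM), Ighv1-11 (1.91 TPM), Igkv6-15 (1.31 TPM), Igkv4-59 (1.16 TPM), Iglv1 (1.03 TPM), Igkv1-117 (0.96 TPM), Ighv1-53 (0.64 TPM), Iglv2 (0.58 TPM) and Iglv3 (0.54 TPM). Aoah 2 did so in Ighv11-2 (7.07 TPM) and the only annotated segment of the Igkv16 family (5.13 TPM), Aoah 3 in Ighv1-64 (1.03 TPM) and Ighg2c (0.12 TPM), and the library labelled Aoah 4 in Ighv1-81 (0.41 TPM). The summed immunoglobulin TPM of Aoah 1 and Aoah 2 did not stand apart by this measure, since both were high.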

How the results depend on the processing

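In B16mhgp100 the log2 ratio of summed immunoglobulin stayed above 0 under every alternative run, from 1.47 to 2.97 with a library left out. No alternative left out Aoah 1 and Aoah 2 together. In B16F10 it was 1.38 without Vector 1 and ranged from -3.97 to 1.38. With the replicate block 1 member passed in B16F10 (Igkc, -1.56, limma adjusted p = 0.022). Its same-numbered tumours nonetheless stood at 1.67 against 29.15 TPM and at 0.29 against 0. With a library of B16F10 left out, 1 group holds 1 library, so effect sizes alone are given for members in those fits. Ighm was 0.90 and Igkc 0.89 in B16F10 without Vector 1, and -2.11 and -4.02 without Vector 2. In the comparison of the models Ighm was 0.09 without Aoah 2 and 0.02 without Vector 1 of B16mhgp100. Without Vector 2 of B16F10, Ighm was 0.61, Igkc 0.53 and Igkv6-15 1.84 in that comparison. Without Vector 1 of B16F10 they were -0.90, -1.92 and -0.25.

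Over all genes, those passing in B16mhgp100 numbered 0, or 1 with a pseudocount of 0.1, and 0 to 1 with a library left out. In B16F10 they numbered 50, but 32 with a pseudocount of 0.1, 0 with no filter, 129 with median-of-ratios scaling, 765 with the replicate block and 105 to 2394 with a library left out. For the difference of the Aoah effect they numbered 5, but 46 with no filter, 10 with that scaling, 2 with the replicate block and 2 to 45 with a library left out (45 without the library labelled Aoah 4). Between the models they numbered 1221, but 2135 with that scaling and 417 to 5283 with a library left out (5283 without the library labelled Aoah 4). The cause was not tested. That scaling moved the median of all genes in B16mhgp100 from -0.20 to -0.02, and left Ighm at 1.56 and Igkc at 2.06.

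Same-numbered tumours of B16mhgp100 had deviations that correlated at -0.24 to 0.07 across genes, and 0 of 8 libraries correlated best with their own number, so the number gives no pairing. In B16F10 the same-numbered tumours correlated at -0.084. The block changed no other member's call. With sign flips within numbers the IGH clone difference of 11.25 had an exact p of 0.5. For the comparison of the models the block was not run, since that contrast could not be estimated with it.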
